A study of Mus musculus with 2 samples.

Results

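The genes described here are 10 interferon-gamma-induced GTPases of the mouse, taken by symbol from the 32285 features of the deposited matrices. They are 5 guanylate-binding proteins (Gbp2, Gbp3, Gbp4, Gbp5 and Gbp7) and 5 immunity-related GTPases (Irgm1, Irgm2, Igtp, Iigp1 and Tgtp2), and all 10 were found. Their levels were followed across classes of liver non-parenchymal cells, the cells other than hepatocytes, such as endothelial, stellate, bile duct and immune cells. The cells came from Mfap2+/+ mice (WT) and Mfap2-/- mice (KO), and both groups had received CCl4, a hepatotoxin used to provoke fibrosis, by intraperitoneal injection for 8 weeks. Mfap2 encodes a glycoprotein of extracellular microfibrils. No untreated animals were analysed here, and the labels used here give neither the age nor the number of animals behind a library. Each genotype is 1 library, so genotype, animal and library cannot be told apart and no test between genotypes was made. Ranges in parentheses after a value are 95% intervals that cover counting error only.

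Interferon-gamma, released mainly by T cells, natural killer cells and innate lymphoid cells, acts through its receptor and the kinases Jak1 and Jak2, and its targets often carry GAS elements. It also raises Irf1, and IRF factors bind ISRE elements, which type I interferon uses as well, so that many of these GTPases answer to both interferon types. Guanylate-binding proteins and immunity-related GTPases assemble on the vacuoles of intracellular pathogens and help to break them open. Effectors of the second family, such as Iigp1 and Tgtp2, load onto foreign vacuoles, whereas the regulators Irgm1, Irgm2 and Igtp (also called Irgm3) sit on the cell's own membranes and hold the effectors inactive there.

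On GRCm38 (GENCODE M21), 4 of the guanylate-binding protein genes lie side by side on the forward strand of chromosome 3: Gbp5 (142493978 to 142522344), Gbp7 (142530342 to 142550149), Gbp3 (142560026 to 142573209) and Gbp2 (142620602 to 142638008). Gbp4 lies on the reverse strand of chromosome 5 (105115767 to 105139586). Chromosome 11 holds Irgm1 (48861968 to 48871683, reverse), Tgtp2 (49057194 to 49064206, reverse), Igtp (58199556 to 58207591, forward) and Irgm2 (58199618 to 58222782, forward). Several of these genes share sequence or ground with a neighbour, which bears on reads from the 3′ end. The last 500 bases of Tgtp2 are 100% identical to Tgtp1, and the end of Gbp4 aligns to Gbp6 over 506 bases at 88.5% identity. Igtp and Irgm2 overlap on the same strand, Gbp4 overlaps Gbp8 and Gbp9 on the same strand, and Tgtp2 overlaps Olfr56 on the opposite strand. How the authors' counting treated such reads is not given in the sources used here, so the values of Tgtp2, Gbp4, Igtp and Irgm2 are uncertain in this respect.

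Promoter sequence is shown because these genes are known interferon targets and the letters that the responding factors bind can be read in it. RefSeq windows on GRCm38.p6 matched 8 of the 10 genes with 9 windows, and the 250 bases before each start were searched on both strands. The GAS motif was spelled TTCNNNGAA and the ISRE core as GAAA, any 2 bases and GAAA again, which reads TTTC, any 2 bases and TTTC on the other strand. The first spelling is its own reverse complement, and matches were allowed to overlap. An ISRE match was present in 8 of the 8 genes and a GAS match in 5 of them (Gbp5, Gbp7, Tgtp2, Igtp and Irgm2). These counts are per gene. A second window of Gbp3 held neither match, and the shares that follow are per window. Among all 32851 RefSeq windows, 2.98% held an ISRE match, 7.02% a GAS match and 0.332% both. A match is a description of letters and says nothing of binding. The starts are those of RefSeq, and the stretches of Irgm1, Irgm2 and Gbp5 fall within the GENCODE gene spans given above. In these stretches upstream of the RefSeq start, capitals mark the matches.
Irgm1, chr11:48871421-48871490, reverse strand: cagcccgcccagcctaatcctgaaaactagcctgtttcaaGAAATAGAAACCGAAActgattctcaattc
Tgtp2, chr11:49064233-49064333, reverse strand: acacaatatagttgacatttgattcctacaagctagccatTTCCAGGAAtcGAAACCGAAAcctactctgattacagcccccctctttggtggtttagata
Igtp, chr11:58199471-58199555, forward strand: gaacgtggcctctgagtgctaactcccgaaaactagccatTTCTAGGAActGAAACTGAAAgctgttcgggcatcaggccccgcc
Irgm2, chr11:58214862-58214962, forward strand: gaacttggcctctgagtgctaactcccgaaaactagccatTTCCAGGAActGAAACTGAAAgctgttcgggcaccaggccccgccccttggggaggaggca
Gbp7, chr3:142530190-142530332, forward strand: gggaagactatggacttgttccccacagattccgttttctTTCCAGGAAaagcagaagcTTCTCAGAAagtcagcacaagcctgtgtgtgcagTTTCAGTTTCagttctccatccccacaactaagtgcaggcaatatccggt
Gbp5, chr3:142496684-142496899, forward strand: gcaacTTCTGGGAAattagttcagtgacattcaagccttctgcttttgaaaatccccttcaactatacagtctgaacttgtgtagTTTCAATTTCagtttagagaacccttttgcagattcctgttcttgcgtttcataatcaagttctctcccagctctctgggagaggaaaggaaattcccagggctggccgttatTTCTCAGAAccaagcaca

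In Tgtp2, Igtp and Irgm2 the GAS match began 11 bases before the ISRE match. The Igtp and Irgm2 stretches differed at 3 of the 85 bases set against each other. Irgm1 had 2 overlapping ISRE matches, 30 and 24 bases before the start, and no GAS match in these letters. Gbp5 and Gbp7 each had 2 GAS matches and 1 ISRE match.

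The WT library held 82499307 UMIs (unique molecular identifiers, tags that mark single RNA molecules) in 11783 barcodes, with a median of 4685, and the KO library 118226367 UMIs in 12872 barcodes, with a median of 6511. The libraries share 40 barcodes. After filters and removal of likely doublets 10336 WT and 11428 KO cells remained, with 215 and 2 Mfap2 UMIs. Joint clustering gave 31 clusters, and 13 classes named from marker genes had at least 50 cells in each library and were compared. Smaller classes, among them 46 WT and 75 KO hepatocyte-like cells, were counted only in the sums over all cells. A further 4 clusters, with 16.3% of WT and 12.7% of KO cells, had no name. The KO library was higher in the nuclear RNA Malat1 in 12 of 13 classes (log2 ratio -0.18 to 0.58) and in Neat1 in 13 of 13 (0.07 to 0.89), and their part in the results was not tested.

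Levels are given as CPM, the UMIs of a gene per 1000000 UMIs of the class. Each gene is compared with itself across classes, because 3′ counts are not set per length between genes. Iigp1, an effector that is recruited to pathogen vacuoles, stood at 1655 and 1992 CPM in WT and KO mesenchymal-like cells and at 1568 and 3028 CPM in endothelial-like cells. The next class, cholangiocyte-like cells, had 71.1 and 113 CPM, and the other 10 classes lay between 23.5 and 38.0 CPM in WT and between 51.1 and 84.5 CPM in KO. The leading class was thus mesenchymal-like in WT and endothelial-like in KO, with intervals that did not overlap in either library.

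Irgm1, a regulator that takes part in the defence against mycobacteria, stood at 79.2 and 221 CPM in endothelial-like cells, 40.9 and 95.5 CPM in mesenchymal-like cells and 34.2 and 78.0 CPM in cholangiocyte-like cells. Every other class lay at or below its level in macrophage-like cells, 16.1 and 31.2 CPM. Tgtp2, an effector, had the same 3 classes at the top, with 23.0 and 63.7 CPM in endothelial-like, 24.1 and 36.9 CPM in mesenchymal-like and 5.19 and 11.8 CPM in cholangiocyte-like cells. Irgm2 was highest in mesenchymal-like cells (52.3 and 62.6 CPM), and in KO its intervals overlapped between neighbours among mesenchymal-like, endothelial-like and cholangiocyte-like cells. Igtp had the flattest order. T-like cells led at 24.1 and 34.1 CPM, B-like cells were last at 3.84 and 3.79 CPM, and the intervals of all neighbours in the order overlapped in both libraries.

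The guanylate-binding proteins were ordered differently. Gbp5, which takes part in inflammasome responses, was highest in NK or innate lymphoid-like cells at 146 and 264 CPM and lowest in cholangiocyte-like cells at 4.30 and 8.28 CPM. In WT the interval of mesenchymal-like cells (125 CPM) overlapped that of NK or innate lymphoid-like cells. Gbp4 was led by endothelial-like cells (84.9 and 129 CPM), followed by NK or innate lymphoid-like cells (61.4 and 64.6 CPM) and T-like cells (54.6 and 55.1 CPM), the last pair overlapping in both libraries. Gbp2, which gathers on pathogen vacuoles, was highest in mesenchymal-like cells (58.3 and 80.4 CPM), although in KO their interval overlapped that of endothelial-like cells. Macrophage-like and endothelial-like cells came next and overlapped in WT, while in KO endothelial-like cells stood above macrophage-like cells without overlap. Gbp3 was highest in mesenchymal-like and endothelial-like cells, which overlapped in both libraries. Gbp7 was highest in the same classes in WT, with overlap, and in endothelial-like cells alone in KO. The plot of levels by class shows these orders.

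**Figure D1:**
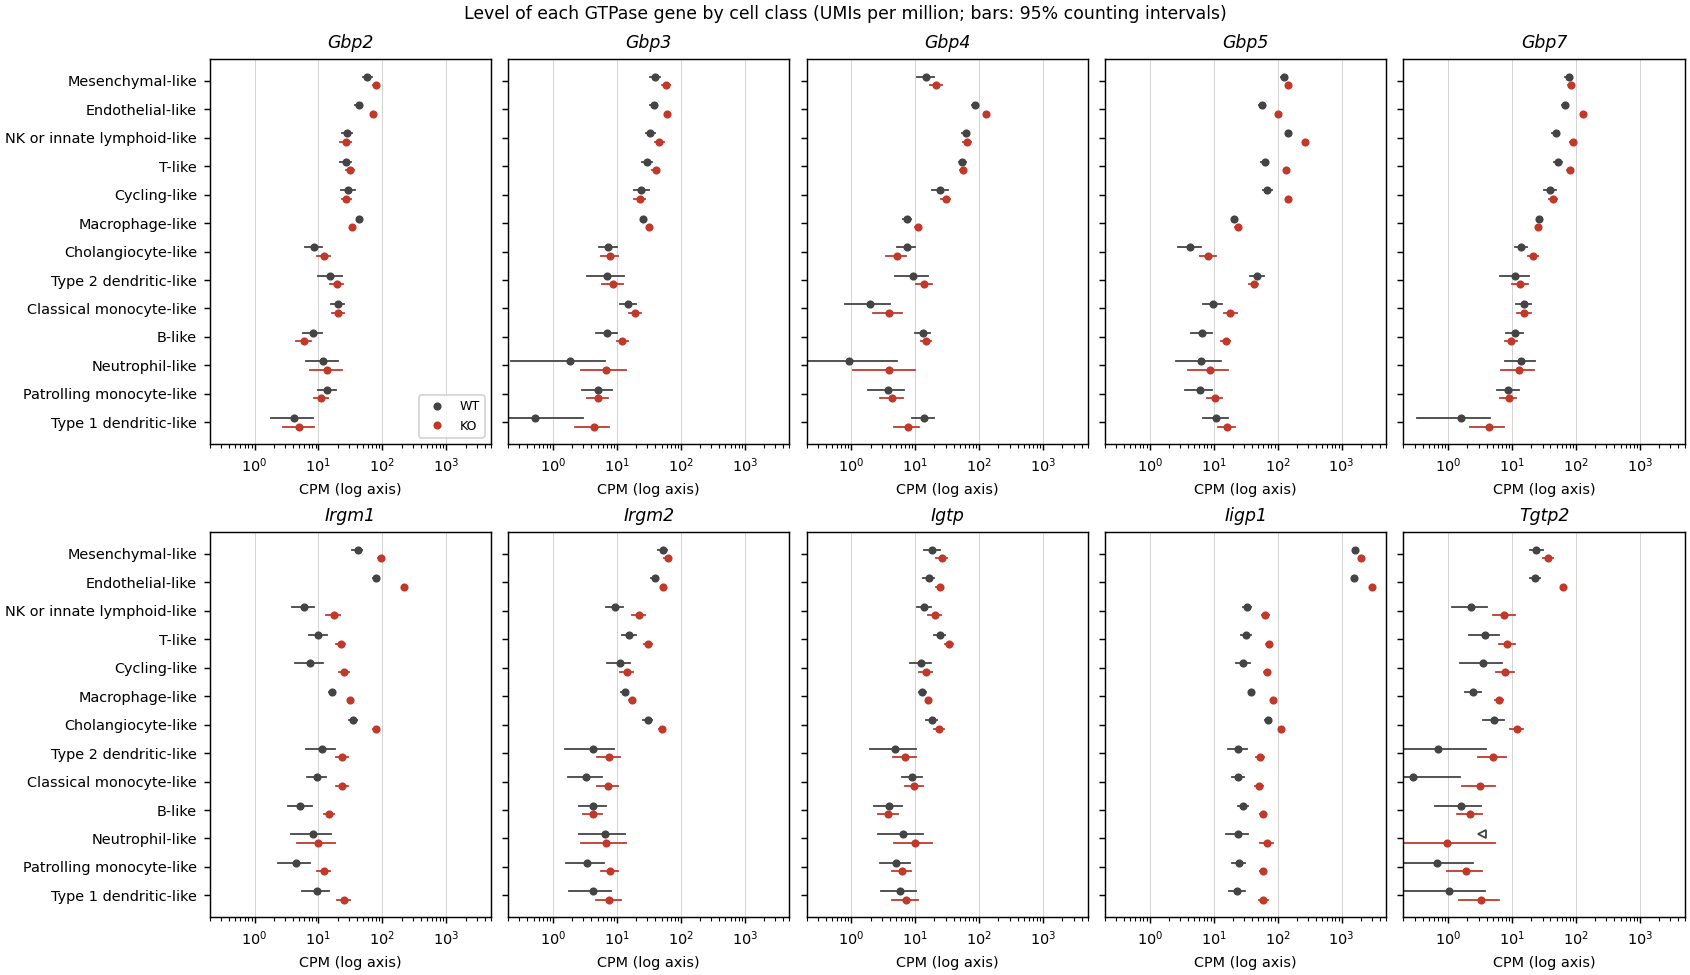
Level of each GTPase gene in the 13 classes of the WT (grey) and KO (red) libraries, in CPM on a log axis, with 95% counting intervals as bars and an open triangle for the upper bound where no UMI was found. Iigp1 stands far to the right in mesenchymal-like and endothelial-like cells, and the KO points of Irgm1 and Iigp1 lie to the right of the WT points in every class.

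Over all cells kept the 10 genes together made up 432 CPM in WT and 788 CPM in KO, with 4 of 10 genes past 1.5-fold higher and 0 lower, beside 16.4% and 6.02% of all genes. In endothelial-like cells (1224 WT and 1621 KO cells) they made up 2017 CPM (1982 to 2053) in WT and 3884 CPM (3848 to 3920.3) in KO. The log2 ratio of KO over WT was 0.95 (0.92 to 0.97), the highest value of the 13 classes, which ranged down to 0.31. Its interval overlapped those of type 1 dendritic-like (0.90, 0.63 to 1.19), neutrophil-like (0.81, 0.42 to 1.22) and patrolling monocyte-like cells (0.75, 0.54 to 0.98). A gene was counted as higher or lower when its ratio passed 1.5-fold and it had at least 20 UMIs over both libraries. By that rule 8 of 10 genes were higher in KO and 0 were lower, whereas 10.8% of all genes of the class were higher and 12.8% were lower. At a fold of 2, 2 of the 10 genes were higher (Irgm1 and Tgtp2), beside 3.68% of all genes. The median log2 ratio of the 10 genes was 0.79, beside -0.03 over all genes.

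The 5 guanylate-binding proteins were all past 1.5-fold higher in KO endothelial-like cells. Gbp7 had 67.9 CPM (61.6 to 74.7) in WT and 129 CPM (123 to 136) in KO, a log2 ratio of 0.92 (0.77 to 1.08). Gbp5 had 57.6 CPM (51.8 to 63.9) in WT and 103 CPM (97.2 to 109) in KO, a log2 ratio of 0.83 (0.67 to 1.01). Gbp2 had 42.9 CPM (37.9 to 48.3) in WT and 72.1 CPM (67.2 to 77.1) in KO, a log2 ratio of 0.75 (0.55 to 0.95). The intervals of these ratios overlap, so the counts do not order the 3 genes. Gbp3 stood at 38.1 and 60.7 CPM (log2 ratio 0.67, 0.46 to 0.89). Gbp4 stood at 84.9 and 129 CPM (0.60, 0.46 to 0.75).

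Among the immunity-related GTPases the distance between the libraries was unequal. Irgm1 had 79.2 CPM (72.3 to 86.5) in WT and 221 CPM (213 to 230.2) in KO, a log2 ratio of 1.48 (1.34 to 1.63). Tgtp2 had 23.0 CPM (19.4 to 27.0) in WT and 63.7 CPM (59.2 to 68.4) in KO, a log2 ratio of 1.46 (1.21 to 1.74). Iigp1, with 9765 and 35087 UMIs, had a log2 ratio of 0.95 (0.92 to 0.98). The intervals of Irgm1 and Tgtp2 lay above that of Iigp1. The other regulators were not past 1.5-fold: Irgm2 had 39.0 and 53.4 CPM (0.45, 0.24 to 0.67) and Igtp had 16.4 and 24.2 CPM (0.55, 0.23 to 0.90). The WT and KO medians of mitochondrial UMIs in the class were 4.05% and 3.62%.

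The endothelial-like class comprised 4 clusters. Cluster 4, led by genes such as the sinusoidal Stab2, Clec4g and Lyve1, held 562 WT and 940 KO cells and stood at 2090.3 and 4219 CPM summed over the 10 genes (log2 ratio 1.01, 0.98 to 1.05). Cluster 15, with Selp, Rspo3 and Vwf among its leading genes, held 200 WT and 189 KO cells and stood at 2416 and 3735 CPM (0.63, 0.57 to 0.68). Cluster 8 held 429 WT and 451 KO cells of low UMI count (medians 1336 and 1570) and stood at 503 and 1223 CPM (1.28, 1.101 to 1.46). The small cluster 28, with 33 WT and 41 KO cells, had a summed log2 ratio of 0.58, so the KO library was higher in each of the 4. Gbp2 stood at 49.6 and 122 CPM in cluster 15 (log2 ratio 1.29, 0.94 to 1.67) and at 44.2 and 62.4 CPM in cluster 4 (0.49, 0.24 to 0.76). Iigp1 had the opposite order, with log2 ratios of 0.51 in cluster 15 and 1.03 in cluster 4. Irgm1 had log2 ratios of 1.42 and 1.48, with overlapping intervals.

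Shares of cells were compared after thinning each cell to 1000 UMIs, which left out 122 WT and 103 KO endothelial-like cells. At that depth at least 1 of the 10 genes was detected in 56.0% of WT (53.0 to 58.9) and 76.0% of KO (73.8 to 78.1) endothelial-like cells. At least 2 genes were detected in 18.4% and 36.8%, and at least 3 in 3.81% and 12.8%. A larger share of KO endothelial-like cells thus held several of these RNAs at equal depth. For Iigp1 alone the thinned shares were 44.0% and 64.2% (60.3% and 78.2% unthinned, median depths 4271 and 6196 UMIs). B-like cells, a class with low levels of these genes that is set beside them, had 3.17% and 5.90% thinned and 9.58% and 25.3% unthinned, at median depths of 3377.5 and 4763.5 UMIs. For Irgm1 the thinned endothelial-like shares were 6.62% and 15.1%, beside 0.583% and 1.08% in B-like cells.

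**Figure D2:**
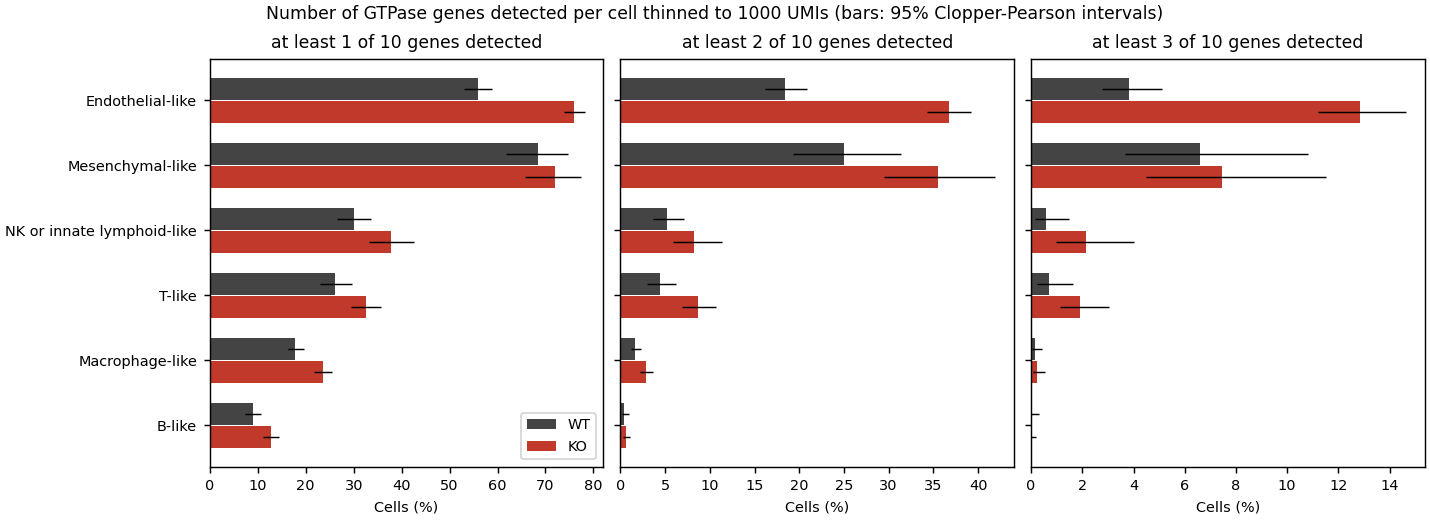
Share of cells (%) in which at least 1, 2 or 3 of the 10 genes were detected after thinning to 1000 UMIs, by class and library (WT grey, KO red), with 95% Clopper-Pearson intervals. In endothelial-like cells at least 2 genes were detected in 18.4% of WT and 36.8% of KO cells.

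Mesenchymal-like cells, a class that can hold stellate cells and fibroblasts, had high levels in both libraries and a smaller ratio. The summed level was 2105 CPM (2053 to 2157) in WT and 2602 CPM (2551 to 2654) in KO (219 WT and 276 KO cells), a log2 ratio of 0.31 (0.26 to 0.35). Of the 10 genes 2 were past 1.5-fold higher (Irgm1 and Tgtp2) and 0 lower, where 18.9% of all genes of the class were higher and 8.76% lower, so the count is close to the background. Irgm1 had 40.9 CPM (33.95 to 48.8) in WT and 95.5 CPM (85.9 to 106) in KO, a log2 ratio of 1.22 (0.92 to 1.53). Iigp1 had a log2 ratio of 0.27 (0.22 to 0.32), beside 0.95 in endothelial-like cells, a difference between classes that was not tested. Gbp5 stood at 125 and 146 CPM (0.23, 0.03 to 0.42). Gbp7 stood at 77.1 and 82.8 CPM (0.10, -0.15 to 0.35), with an interval that includes 0. At least 1 of the 10 genes was detected in 68.4% (61.7 to 74.6) and 71.9% (65.8 to 77.5) of thinned cells.

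In macrophage-like cells (2071 WT and 2109 KO cells) the 10 genes made up 207 CPM (201 to 213) in WT and 281 CPM (275 to 287) in KO, a log2 ratio of 0.44 (0.39 to 0.50). Of the 10 genes 3 were past 1.5-fold higher (Irgm1, Iigp1 and Tgtp2) and 0 lower, beside 18.3% and 5.34% of all genes, and the medians were 0.34 for the 10 genes and 0.13 for all genes. The 5 guanylate-binding proteins together stood at 124 and 126 CPM (log2 ratio 0.02), and the 5 immunity-related GTPases at 82.9 and 155 CPM (0.90). Iigp1 made up 38.0 and 84.5 CPM of the second sum, and its part from RNA set free by broken cells was not tested. Gbp2 was lower in KO, with 43.4 CPM (40.7 to 46.2) in WT and 33.6 CPM (31.5 to 35.8) in KO, a log2 ratio of -0.37 (-0.50 to -0.24). That value was -0.09 with cells thinned before summing and -0.22 with KO cells weighted to the WT mix of clusters. Gbp7 stood at 26.3 and 25.6 CPM (-0.04, -0.20 to 0.12), an interval that includes 0. Gbp4 stood at 7.46 and 11.2 CPM (0.58, 0.31 to 0.86), just short of 1.5-fold.

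Irgm1 had 16.1 CPM (14.5 to 17.9) in WT and 31.2 CPM (29.2 to 33.4) in KO macrophage-like cells, a log2 ratio of 0.95 (0.78 to 1.14). Irgm2 and Igtp, the other regulators, had log2 ratios of 0.37 and 0.31. The class had 3 clusters, with summed log2 ratios of 0.46 in cluster 1, 0.57 in cluster 10 and 0.56 in cluster 11. Cluster 10, with the Kupffer cell genes Marco, Clec4f and Vsig4 among its leading genes, had the highest Gbp2, at 59.7 CPM in WT and 59.7 CPM in KO, and fewer cells in KO (460 WT and 256 KO cells). Gbp2 stood at 38.0 and 29.9 CPM in cluster 1 (-0.35, -0.53 to -0.17) and at 35.9 and 27.1 CPM in cluster 11 (-0.41, -0.76 to -0.05).

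T-like cells (714 WT and 911 KO cells) had a summed level of 312 CPM (295 to 329.7) in WT and 511 CPM (493 to 529) in KO, a log2 ratio of 0.71 (0.62 to 0.81). Of the 10 genes 5 were higher and 0 lower, beside 13.6% and 7.03% of all genes, with medians of 0.79 and 0.09. Gbp5 had 62.5 CPM (54.9 to 70.8) in WT and 135 CPM (126 to 145) in KO, a log2 ratio of 1.11 (0.90 to 1.32). Irgm2 had 15.5 and 31.1 CPM (0.99, 0.58 to 1.45), beside 0.45 in endothelial-like cells, a difference between classes that was not tested. Gbp4 stood at 54.6 and 55.1 CPM (0.01, -0.24 to 0.27). Cluster 20 had the highest summed level of the 3 T-like clusters, 528 and 983 CPM, and cluster 22, with Il17a and Il23r among its leading genes, had a log2 ratio of 0.26 (-0.07 to 0.62), an interval that includes 0.

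NK or innate lymphoid-like cells (704 WT and 433 KO cells) stood at 382 CPM (365 to 400.3) in WT and 622 CPM (597 to 649) in KO, a log2 ratio of 0.70 (0.61 to 0.79). There 6 of 10 genes were higher and 0 lower, beside 14.8% and 5.48% of all genes. Gbp5 had 146 CPM (135 to 157) in WT and 264 CPM (247 to 282) in KO, a log2 ratio of 0.85 (0.71 to 0.999). Gbp7 had 48.6 and 88.9 CPM (0.87, 0.62 to 1.12). The regulators had few UMIs in this class: Irgm1 had 28 and 61 UMIs (5.86 and 17.2 CPM) and Irgm2 had 45 and 78 UMIs (9.42 and 22.0 CPM). Gbp2 had 28.1 and 26.8 CPM (-0.06, -0.46 to 0.32).

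B-like cells (1232 WT and 1800 KO cells) had a low summed level, with 89.3 CPM (80.7 to 98.6) in WT and 141 CPM (134 to 149) in KO, a log2 ratio of 0.66 (0.50 to 0.83). Of the 10 genes 4 were higher and 0 lower, beside 11.1% and 6.15% of all genes, with medians of 0.27 and 0.07. Irgm1 had 23 and 130 UMIs (5.20 and 14.5 CPM, log2 ratio 1.43, 0.83 to 2.19). Gbp5 had 29 and 138 UMIs (6.56 and 15.4 CPM, 1.19, 0.64 to 1.86). Gbp2 had 36 and 53 UMIs, with a log2 ratio of -0.48 whose interval includes 0 (-1.100 to 0.19). The intervals of these low counts are wide, and the ratios of Irgm1 and Gbp5 could not be ordered at this depth.

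Cholangiocyte-like cells, of the bile duct lining, stood at 200.3 and 332 CPM, and 6 of 10 genes were higher and 0 lower, beside 19.7% and 8.08% of all genes. Different clusters held most of this class: the low-UMI cluster 16 had 299 WT and 89 KO cells and cluster 17 had 133 WT and 163 KO cells. In cluster 17 the summed log2 ratio was 0.78 (0.67 to 0.89), and in cluster 16, with 82 and 28 UMIs of the 10 genes, it was -0.40 (-1.11 to 0.20). Cycling cells had 4 of 10 genes higher, beside 15% and 8.71% of all genes, with summed log2 ratios of 0.81 in cluster 21 (98 WT and 108 KO cells) and 1.04 in cluster 23 (40 WT and 140 KO cells). Classical monocyte-like cells had 5 of 9 higher, beside 15.2% and 6.22% of all genes, and patrolling monocyte-like cells 4 of 9, beside 13.3% and 7.99%. Type 2 dendritic-like cells had 3 of 9 higher, beside 13.4% and 10.3%, and neutrophil-like cells 1 of 3, beside 19.8% and 7.92%. In these 4 classes and in cycling cells 0 genes were lower. Type 1 dendritic-like cells had 3 of 7 higher and 1 lower, which was Gbp4 (26 and 21 UMIs), beside 14.1% and 5.59%.

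Read gene by gene, Irgm1 was past 1.5-fold higher in all 12 classes where it had at least 20 UMIs over both libraries, with log2 ratios from 0.95 in macrophage-like cells to 1.67 in cycling cells. Iigp1 was past it in 12 of 13 classes, the exception being mesenchymal-like cells. Tgtp2 was past it in 7 of 8, Gbp5 in 8 of 12 and Irgm2 in 7 of 12. Some classes met the UMI rule only with the KO counts, so these tallies lean on classes with high KO values. Irgm1 had 17 WT and 125 KO UMIs in cycling, 18 and 69 in type 1 dendritic-like and 16 and 80 in type 2 dendritic-like cells. In patrolling monocyte-like cells it had 13 and 70. Tgtp2 had 15 and 51 in T-like, 8 and 39 in cycling, 11 and 27 in NK or innate lymphoid-like and 7 and 20 in B-like cells. Igtp was past it in 0 of 12 classes, although its log2 ratio was above 0 in 11 of them (-0.06 to 0.55). Gbp2 was past it in 1 of 13 classes, endothelial-like cells, and its log2 ratio was below 0 in 5. Gbp3 passed in 2 of 11, Gbp4 in 2 of 12 with 1 lower, and Gbp7 in 3 of 12. The share of all genes that passed lay between 10.8% and 19.8% over the classes. The classes come from the same 2 libraries, so they are not replicates of the genotype.

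**Figure D3:**
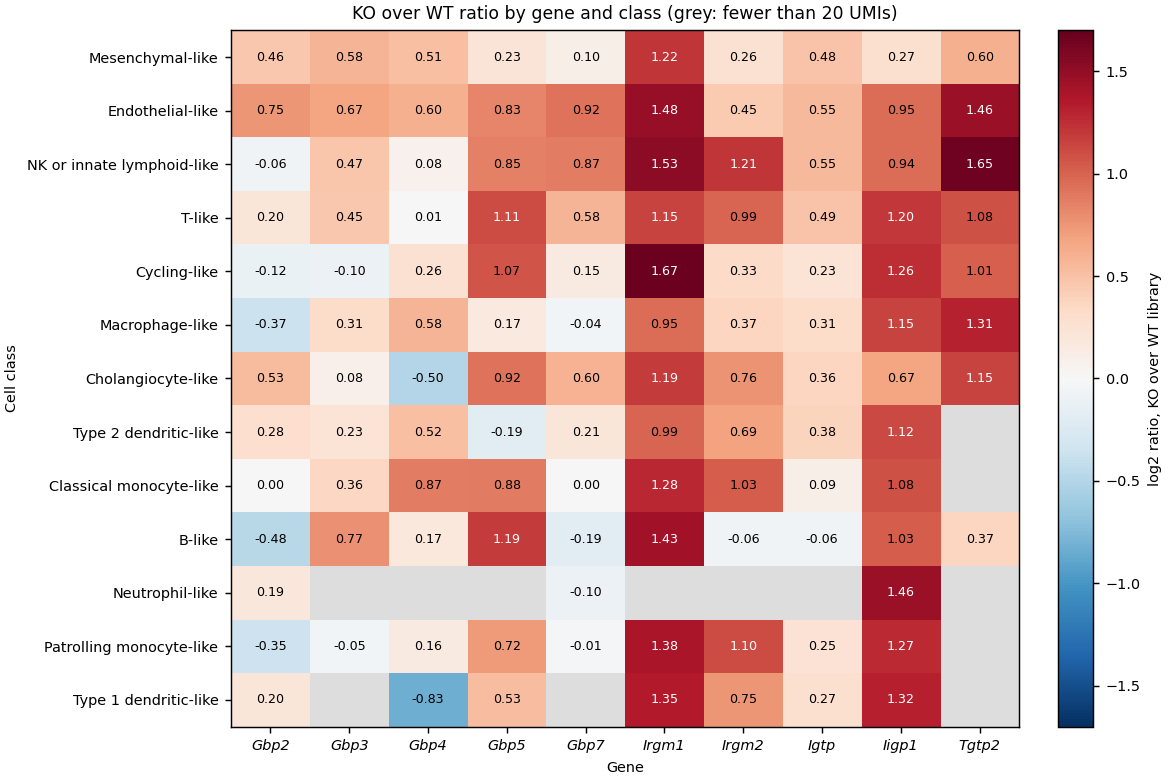
Log2 ratio of KO over WT for each of the 10 genes (columns) in the 13 classes (lines of the grid), coloured from blue (lower in KO) to red (higher in KO), with grey where fewer than 20 UMIs were counted. Irgm1 is red in each class where it has a value, from 0.95 to 1.67, while Gbp2 runs from -0.48 in B-like to 0.75 in endothelial-like cells.

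RNA set free from broken cells adds UMIs to every droplet, so Iigp1 was set against the sum of Stab2, Clec4g and Oit3, genes of liver sinusoidal endothelium that were chosen after values had been seen. Per UMI of these 3 genes, Iigp1 had 0.567 UMIs in WT and 0.952 in KO endothelial-like cells. In the 10 leukocyte and cycling classes the same quotient lay between 0.553 and 0.918 in WT and between 0.891 and 1.33 in KO. The medians over these classes were 0.682 and 1.12, above the endothelial values, and the ranges include those values. How much of the Iigp1 level and ratio in these classes was free RNA was not tested, and their Iigp1 counts carry this limit. The sinusoidal genes themselves stood at 25.6 to 51.7 CPM in WT and 45.1 to 72.7 CPM in KO in these classes. In mesenchymal-like cells the quotient was 24.2 and 29.2, and in cholangiocyte-like cells 2.07 and 2.05, both above the endothelial value. With mesenchymal marker UMIs added to the reference the quotient in cholangiocyte-like cells was 0.110 and 0.173. These values lay below 0.536 and 0.918 in endothelial-like cells and above 0.0849 and 0.142 in mesenchymal-like cells. The cholangiocyte-like cells held 609 and 599.9 CPM of mesenchymal markers. The part of free RNA in the cholangiocyte-like level of Iigp1 was not tested.

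The other genes did not keep to 1 ratio. Irgm1 had 0.0286 and 0.0697 UMIs per sinusoidal UMI in endothelial-like cells, and 0.116 to 0.367 in WT and 0.159 to 0.552 in KO leukocyte and cycling classes. Gbp5 had 0.0208 and 0.0324 in endothelial-like cells, and 0.149 to 3.79 in WT and 0.143 to 4.85 in KO in those classes. Gbp2 had 0.0155 and 0.0227 in endothelial-like cells, and 0.163 to 0.839 in WT and 0.101 to 0.493 in KO. Each of these ranges lies above the endothelial quotient. For Tgtp2 the WT range, 0 to 0.0988, and the KO range, 0.0159 to 0.140, include the endothelial values of 0.00830 and 0.0200. Without Iigp1 the summed log2 ratio was 0.22 in macrophage-like cells, 0.45 in B-like cells and 0.60 over all cells (0.44, 0.66 and 0.87 with it).

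**Figure D4:**
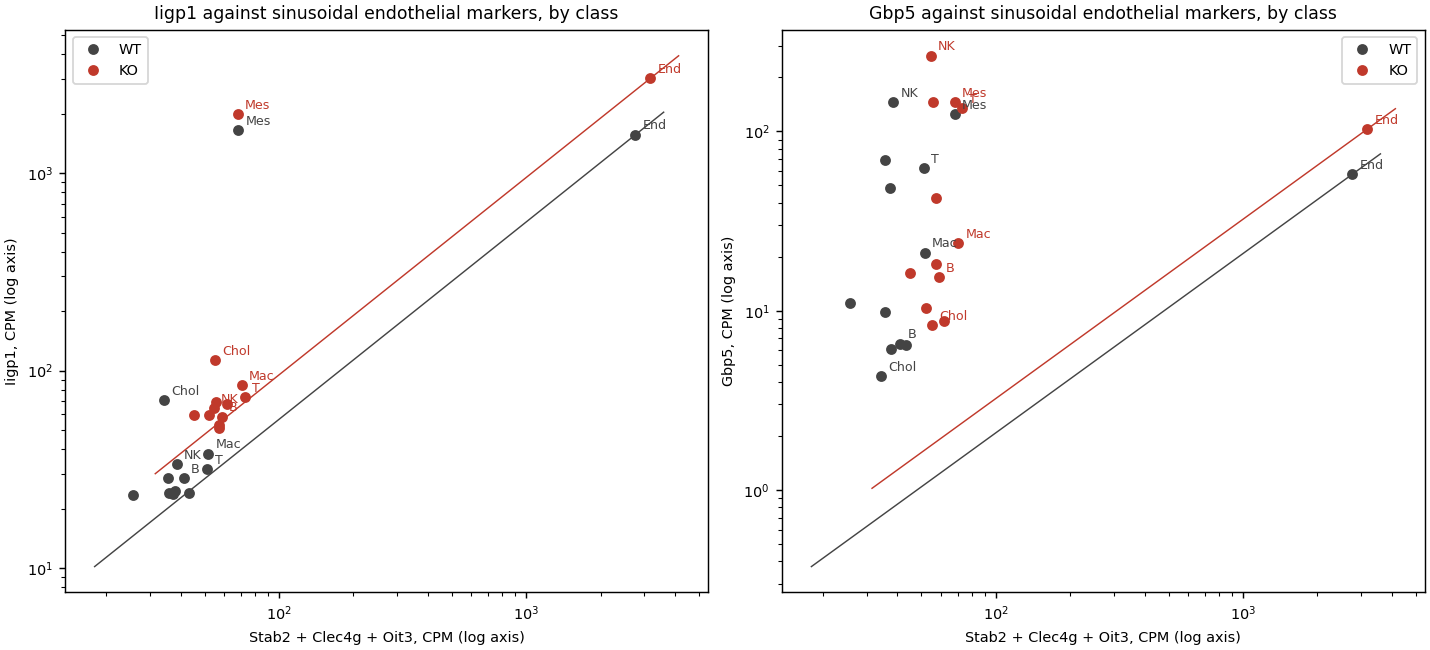
Level of Iigp1 (left) and Gbp5 (right) against the summed level of Stab2, Clec4g and Oit3, in CPM on log axes, with 1 point per class and library (WT grey, KO red) and lines at the ratio found in endothelial-like cells. For Iigp1 the leukocyte points lie near the lines and mesenchymal-like cells far above, with quotients of 24.2 and 29.2.

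Other genes of both families were counted by the same rule. In endothelial-like cells 2 of 3 other guanylate-binding proteins were past 1.5-fold, Gbp6 (71.8 and 108 CPM, 0.59) and Gbp9 (30.03 and 46.0 CPM, 0.61), and 0 lower. Of 10 other immunity-related and very large inducible GTPases 7 were higher and 0 lower, with a median of 0.80. Gvin1, a very large inducible GTPase, had 76.8 and 188 CPM (1.29), and the predicted gene Gm4070 had 29.9 and 118 CPM (1.98). Tgtp1, whose 3′ end cannot be told from that of Tgtp2, had 1.12 and 2.67 CPM (1.104). In macrophage-like cells 7 of 11 were higher, in T-like cells 8 of 9 and in B-like cells 8 of 10, with medians of 0.997, 1.07 and 0.86 and 0 lower. In the same order 18.3%, 13.6% and 11.1% of all genes were higher, and in endothelial-like cells 10.8%. The other guanylate-binding proteins did not show this count: 1 of 4 was higher in macrophage-like cells (Gbp2b, with 6 and 18 UMIs), 0 of 3 in T-like and 0 of 3 in B-like cells, with 0 lower.

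Ifng, the ligand, stood at 526 and 326 CPM in T-like cells (log2 ratio -0.69, -0.78 to -0.60), at 691 and 529 CPM in NK or innate lymphoid-like cells (-0.39, -0.47 to -0.30) and at 99.7 and 59.6 CPM over all cells (-0.74). NK or innate lymphoid-like cells were 6.81% of WT and 3.79% of KO cells, and T-like cells 6.91% and 7.97%. The part of this mix in the Ifng value over all cells was not tested. Il18, a cytokine that drives interferon-gamma release, had log2 ratios of -1.20 in endothelial-like, -0.84 in macrophage-like, -0.84 in T-like and -0.85 in B-like cells. The part of free RNA in the T-like and B-like values of Il18 was not tested. In macrophage-like cells 3 of 11 genes of the list of interferon-gamma and its producers were higher, beside 18.3% of all genes. They were Il12b (4.25 and 9.45 CPM, 1.14) and Il15 (31.8 and 58.2 CPM, 0.87), which also drive interferon-gamma release, and Eomes (6 and 18 UMIs). The median of the list was 0.23, beside 0.13 over all genes. Of the receptor and kinase list 1 of 7 genes was higher in endothelial-like cells, Jak1 (2211 and 3565 CPM, 0.69). Of all genes of the class 10.8% were higher, so the count is near the background. The receptor chains Ifngr1 (-0.07, -0.23 to 0.10) and Ifngr2 (-0.12, -0.33 to 0.09) had intervals that include 0 there. Of the transcription factors and feedback genes 5 of 13 were higher in endothelial-like cells and 0 lower, beside 10.8% and 12.8% of all genes. Among them were Usp18 (36.5 and 83.4 CPM, 1.19), Nlrc5 (55.6 and 98.97 CPM, 0.83) and Irf2 (154 and 248 CPM, 0.69).

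Among interferon-gamma targets outside the GTPases 1 of 18 was higher in endothelial-like cells and 4 were lower, with a median of -0.03. Of all genes of the class 10.8% were higher and 12.8% lower, with a median of -0.03, so the list is near the background. Cd274, the ligand of PD-1, was higher (93.5 and 173 CPM, 0.89). The proteasome genes Psmb10 (79.5 and 51.5 CPM, -0.63), Psme2 (93.5 and 59.7 CPM, -0.65) and Psme1 (174 and 115 CPM, -0.60) and the surface protein gene Ly6a (941 and 502 CPM, -0.91) were lower. In macrophage-like, T-like and B-like cells 1 of 17 was higher in each, the chemokine gene Cxcl9, and 2, 2 and 0 were lower, with medians of -0.19, -0.22 and -0.09. Of all genes 18.3%, 13.6% and 11.1% were higher and 5.34%, 7.03% and 6.15% lower, in the same order. The part of free RNA in the T-like and B-like values of Cxcl9 was not tested. Of the type I interferon targets 12 of 18 were higher in endothelial-like cells and 0 lower, with a median of 1.02. Ifit1 had 68.7 and 248 CPM (1.85), Ifit2 131 and 445 CPM (1.77) and Rsad2, which encodes viperin, 158 and 512 CPM (1.699). In macrophage-like, T-like and B-like cells 7, 9 and 10 of 18 were higher, beside 18.3%, 13.6% and 11.1% of all genes. The medians of the list were 0.50, 0.56 and 0.74.

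MHC class II genes had 0 of 6 past the mark in endothelial-like and B-like cells, 3 of 6 in macrophage-like cells and 4 of 6 in T-like cells. Of all genes 10.8% were higher and 12.8% lower in endothelial-like cells, and 18.3% and 5.34% in macrophage-like cells. In T-like cells the shares were 13.6% and 7.03%, and in B-like cells 11.1% and 6.15%. These shares belong beside each count below. The part of free RNA in the T-like values of MHC class II genes was not tested. H2-Aa had 1548 and 2450.3 CPM (0.66) in macrophage-like cells. Of the 13 genes of the machinery that guides these GTPases to membranes, 0 were higher and 1 lower in endothelial-like cells, near the background. The lower gene was Gabarap, an LC3 relative, which was lower in the 4 classes followed. Its log2 ratios were -0.86 (369 and 204 CPM) in endothelial-like, -0.87 in macrophage-like, -0.71 in T-like and -0.86 in B-like cells. Trim21 in T-like cells was the 1 higher gene of that list in these classes (5.08 and 10.6 CPM, 1.01). Among the 8 inflammasome partners 1 was higher and 1 lower in endothelial-like cells, with a median of -0.08, so the list is near the background. The higher gene was Casp4, which senses lipopolysaccharide (426 and 708 CPM, 0.73). Ninj1, whose product ruptures the membrane of dying cells, was lower in all 4 classes (log2 ratios of -1.27, -1.15, -0.78 and -0.77 in the same order). Genes known to respond to tissue dissociation differed too. Of 19 such genes 7 were higher in endothelial-like and 7 in macrophage-like cells, and 0 lower. The heat-shock genes and co-chaperones Hsph1, Bag3, Hspa1a, Hspa1b, Hsp90aa1 and Dnajb1 were higher in both, with Egr1 in the first class and Atf3 in the second. Fos, Junb, Ier2, Dusp1 and Zfp36 were past the mark in neither. Hsph1 had 329.7 and 1267 CPM (1.94) in endothelial-like cells and Bag3 80.7 and 562 CPM (2.80) in macrophage-like cells. The part of the dissociation genes in the GTPase ratios was not tested.

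**Figure D5:**
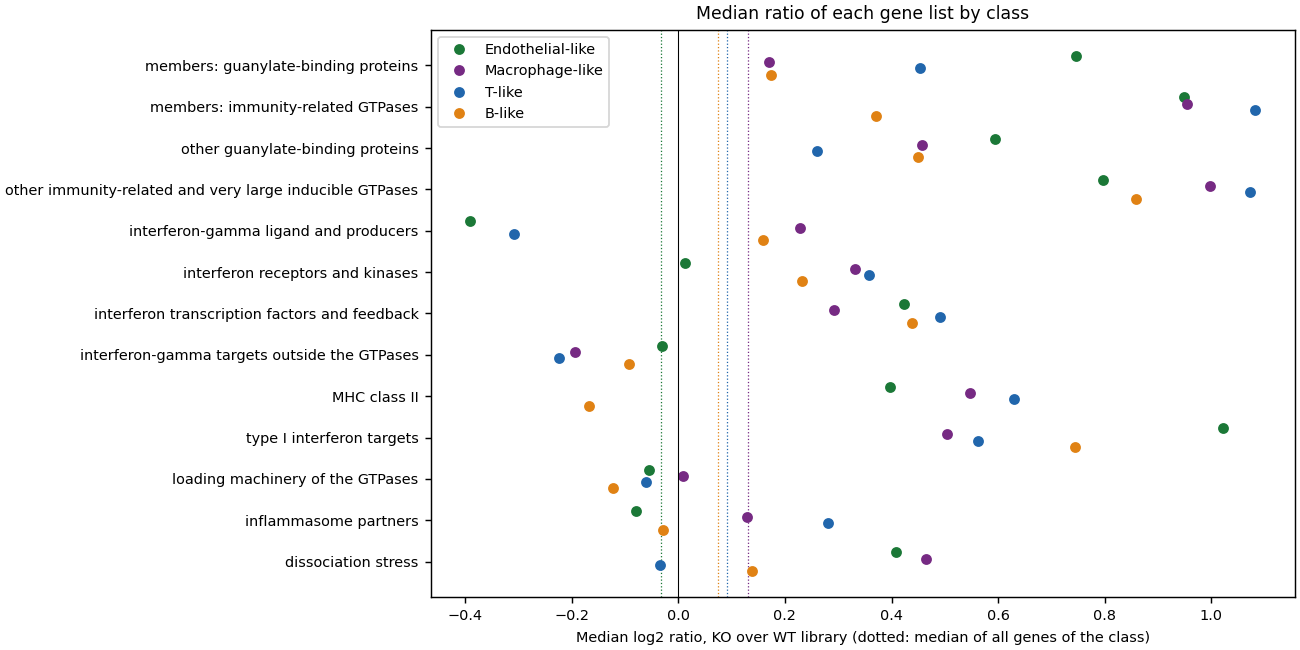
Median log2 ratio of KO over WT of each gene list (genes with at least 20 UMIs) in endothelial-like, macrophage-like, T-like and B-like cells, with dotted lines at the median over all genes of each class. The 5 immunity-related GTPases lie at 0.95 in endothelial-like and 1.08 in T-like cells, and the interferon-gamma targets outside the GTPases at -0.03 and -0.22.

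The likeness of other genes to the mean pattern of the 10 was described over 26 combinations of class and library by Pearson's r of log2(CPM + 10), among 4886 genes. The 5 closest were Gbp6 (0.93), Tshz3 (0.93), Epas1 (0.93), F2r (0.93) and Ttc28 (0.92). Of the 10 genes themselves Tgtp2 (0.92) and Gbp7 (0.91) followed the mean of the others most closely, and Gbp4 (0.69) and Gbp5 (0.696) least. The points share 2 libraries and the free RNA in them, so no p is given.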

How the data were processed

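Per the labels' protocols, liver non-parenchymal cells of 1 WT and 1 KO sample were made into 3′ libraries. The deposited files hold raw counts of UMIs per gene and barcode, written by Cell Ranger 7.0.1 per the file headers. The submitters' processing notes name Cell Ranger 3.1.0, Seurat and mm10, and the treatment of intronic reads is not given in the sources used here. Barcodes with fewer than 200 genes or over 20% mitochondrial UMIs (413 WT, 149 KO) were set aside. Scrublet's automatic threshold marked 0 WT cells and so did not work, and instead the top-scoring 0.8% per 1000 cells were removed (1034 and 1295). Both libraries were clustered together (scanpy 1.11.5, leidenalg 0.10.2, 2000 variable genes without the gene lists, Mfap2, ribosomal, mitochondrial and globin genes, 30 components, 15 neighbours, resolution 1).

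A cluster took a class name, to be read as class-like, when at least 3 fixed markers passed 2 marks. Each marker had to be 2-fold above the other clusters in summed level and found in at least 10% of the cells. The 10 leading genes also could not belong more to another class. Clusters with median UMIs below the library median divided by 3, and no marker of the class among the leading genes, stayed unnamed. Names are rebuilt and may differ from the authors'. A gate on markers in single cells was an alternative, and 58.2% of WT and 59.3% of KO cells lay near its border. It gave the same name to 93.1% of endothelial-like, 85.9% of macrophage-like and 82.6% of mesenchymal-like cells. The share was 23.5% in NK or innate lymphoid-like, 21.0% in cycling and 17.3% in cholangiocyte-like cells. In type 1 and type 2 dendritic-like cells it was 13.1% and 1.4%. Ratios under the gate were followed only in endothelial-like, macrophage-like, T-like and B-like cells. Counts were summed per class and library and given as CPM, and log2 ratios had 1 count added to each sum. Intervals are exact Poisson, exact conditional for ratios and Clopper-Pearson for shares (scipy 1.17.1), at 95%. For shares, cells were thinned to 1000 UMIs, which left out 919 WT and 607 KO cells. The interval step was tested on simulated data.

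Named were all 10 genes, up to 4 genes per list and class with the largest ratio past 1.5-fold, and the 5 genes most like the mean. Genes named outside this rule (Ifng in natural killer cells, Ifngr1, Ifngr2 and Psme1) were added after values had been seen. The 10 genes and the lists were chosen with earlier results of these data known. Gbp11, Gm12250, Mx1 and Mx2 were not matched by symbol. Gene positions come from GENCODE M21 and promoters from RefSeq, both on GRCm38.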

Additional observations from a re-analysis of the deposited data

Results flagged for a closer look

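Gbp2 was lower in KO macrophage-like cells (log2 ratio -0.37) and higher in KO endothelial-like (0.75) and mesenchymal-like cells (0.46), each with an interval that leaves out 0. The difference between the classes was not tested. The summed level of the 10 genes was also higher in KO in 3 clusters that had no class name and entered no comparison. The log2 ratio was 0.77 in cluster 2, which had 7 of 9 neutrophil markers raised and stayed unnamed because its leading genes held Hdc, of the basophil or mast cell marker list, and no neutrophil marker of the fixed list. It was 0.34 in the low-UMI cluster 7 and 0.75 in cluster 18, which was led by Elane, Prtn3 and Mpo.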

How the results depend on the processing

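No paired analysis was possible because each genotype is 1 library. The summed log2 ratio stayed above 0 in the 5 groups of cells followed under every alternative run. Over all cells (0.87) it was 0.80 with no doublets removed, 0.92 as a mean of per-cell CPM, 0.74 under median of ratios scaling, 0.69 with KO cells weighted to the WT mix of clusters and 0.60 without Iigp1. In endothelial-like cells (0.95) it was 0.91 under stricter filters (500 genes, 10% mitochondrial UMIs), 0.91 under the per-cell gate, 1.11 as a mean of per-cell CPM, 1.05 after thinning, 0.98 without the 5 richest cells of each library, 0.88 at the WT mix and 0.90 without cluster 8. At a fold of 2 the genes higher there numbered 2 in place of 8 (3.68% of all genes passed). In macrophage-like cells (0.44) it was 0.52 under the gate, 0.31 under median of ratios, 0.51 at the WT mix and 0.22 without Iigp1. In T-like cells (0.71) median of ratios gave 0.61. In B-like cells (0.66) thinning gave 0.49, with 1 gene lower in place of 0, and leaving out Iigp1 gave 0.45. Of 490 values of 40 single-gene ratios 463 stayed within the counting interval, and 2 that had left out 0 changed sign, both after thinning, which leaves fewer UMIs: Igtp in T-like cells (-0.063) and Gbp3 in B-like cells (-0.040). Median of ratios scaling moved all genes by 0.13 over all cells, -0.02 in endothelial-like, 0.14 in macrophage-like, 0.10 in T-like and 0.09 in B-like cells. The alternatives without Iigp1 and without cluster 8 were chosen after seeing the data. Depth limits the lymphoid and myeloid values of Tgtp2, Irgm2 and Igtp, and no alternative stands in for a second library.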
